A study of Mus musculus with 6 samples.

Results

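The genes that run the cell cycle were examined in RNA from whole tibias of Atrx-cKO and control mice. The set held 41 genes of 55401 gene identifiers in the deposited counts, chosen by name for their role in the cell cycle. Of these, 22 act in DNA replication or its control and 19 act in mitosis, and the 2 groups were read apart. All 41 passed the filter on low counts, beside 20636 genes tested in all.

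RNA-Seq was performed on the tibia of male mice at 8 weeks of age, 3 of them Atrx-cKO and 3 control. The Atrx-cKO mice carried a floxed *Atrx* allele on their single X chromosome (Atrxf/y) and the *Osterix-Cre* transgene, a Tet-off line (Sp7-tTA, tetO-EGFP/cre) in which the *Sp7* (Osterix) promoter drives Cre in preosteoblasts. The control mice carried the same floxed allele (Atrxf/y) without the transgene, so the transgene and the deletion cannot be told apart in these libraries. Doxycycline, which silences the Tet-off driver, was withdrawn at 3 weeks of age, so Cre could act only after that. Each library is 1 tibia RNA sample from bulk bone that mixes many cell types, whereas Cre is directed to the osteoblast lineage.

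A cell commits to division when cyclin E and its kinase phosphorylate the retinoblastoma family and free the E2F factors, which switch on the genes of DNA replication. The origin recognition complex, CDC6 and CDT1 then load the MCM helicase onto DNA, and CDC45 and the GINS complex turn it on. Mitosis genes peak later in the cycle, are held down in resting cells by the DREAM complex and are driven by B-MYB and FOXM1. In a long bone of a young mouse most dividing cells are blood progenitors of the marrow, with growth plate chondrocytes and osteoprogenitors beside them.

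Because both gene groups are known for shared promoter elements, their promoters were searched for 3 motifs on both strands. These were the cell cycle homology region (CHR, TTTGAA or TTCGAA), to which the DREAM complex binds, the CCAAT box, and the E2F element (searched as TTCGCGC, again as TTGGCGC, then as TTCCCGC and finally as TTGCCGC). The RefSeq promoters on GRCm38.p6, each 250 bases before to 50 bases after the start, covered 34 of the 41 members. Of the mitosis genes, 13 of 16 (81.2%) held a CHR, against 4 of 18 replication genes (22.2%) and 21.7% of the 27025 genes with a promoter. The E2F element had the opposite split, in 12 of 18 replication genes (66.7%), 3 of 16 mitosis genes (18.8%) and 10.9% of all genes. The CCAAT box was found in 15 of 16 mitosis genes, 12 of 18 replication genes and 41.1% of all genes. A CHR together with a CCAAT box was held by 13 of 16 mitosis genes, by 4 of 18 replication genes (22.2%) and by 8.61% of all genes. With the 250 bases before the start alone, 8 of 16 mitosis genes kept a CHR, against 4 replication genes (22.2%) and 19.6% of all genes. The 95% Wilson intervals of the 2 arms overlapped in this window, as that of the mitosis genes began at 28% and that of the replication genes reached 45.2%. In that window 7 replication genes (38.9%, 95% Wilson interval 20.3% to 61.4%) kept an E2F element, against 3 mitosis genes (18.8%, interval 6.59% to 43.0%) and 9.01% of all genes, so the intervals of the 2 arms overlapped. A match is a run of letters in this window and was not tested as a binding site.

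Promoters of 5 members show these layouts, each as the 150 bases that end just before the start, 5′ to 3′ on the strand of the gene, with all 3 motifs in capitals. *Mki67*, *Top2a* and *Kif11* are shown for the CHR of the mitosis genes, and *Mcm6* and *Rrm1* for the E2F element of the replication genes.
*Mki67*, chr7:135716380-135716529, minus strand: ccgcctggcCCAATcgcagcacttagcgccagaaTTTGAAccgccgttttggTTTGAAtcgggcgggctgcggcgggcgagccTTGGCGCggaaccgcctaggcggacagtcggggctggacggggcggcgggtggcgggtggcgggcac
*Top2a*, chr11:99024190-99024339, minus strand: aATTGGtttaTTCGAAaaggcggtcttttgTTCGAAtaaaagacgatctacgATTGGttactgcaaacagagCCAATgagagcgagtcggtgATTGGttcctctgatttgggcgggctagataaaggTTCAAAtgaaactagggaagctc
*Kif11*, chr19:37376232-37376381, plus strand: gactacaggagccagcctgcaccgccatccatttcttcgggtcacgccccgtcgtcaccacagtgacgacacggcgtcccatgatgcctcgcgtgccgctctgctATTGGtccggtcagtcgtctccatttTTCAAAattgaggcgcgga
*Mcm6*, chr1:128359706-128359855, minus strand: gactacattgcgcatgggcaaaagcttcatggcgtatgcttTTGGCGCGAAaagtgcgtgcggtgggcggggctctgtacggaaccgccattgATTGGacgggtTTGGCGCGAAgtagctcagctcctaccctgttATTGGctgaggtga
*Rrm1*, chr7:102441545-102441694, plus strand: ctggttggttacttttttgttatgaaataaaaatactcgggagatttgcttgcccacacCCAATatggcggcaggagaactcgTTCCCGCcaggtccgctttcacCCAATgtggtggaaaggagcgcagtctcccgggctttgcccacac
In *Mki67* the CHR (TTTGAA) occurred in 2 copies, whose first bases lie 116 and 98 bases before the start, followed by an E2F element at 67. *Top2a* held 3 CHR copies, at 140, 120 and 23, among 4 CCAAT boxes read on either strand. *Kif11* held 1 CHR on the reverse strand, as TTCAAA at 19, and 1 CCAAT box, as ATTGG at 45. In *Mcm6* the E2F element was found at 109 and 46 on the strand shown and at 106 and 43 on the other, so each pair overlaps. *Rrm1* held 1 E2F element, TTCCCGC at 67, between 2 CCAAT boxes.

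The libraries held 50977777 to 70571655 counts on genes. The gene-level counts of *Atrx* were 153, 166 and 171 CPM (a read count normalized to the depth of its library) in the Atrx-cKO libraries and 174.5, 166 and 165 CPM in the controls, a log2 difference of -0.047 (SE 0.080). A gene-level count does not resolve the floxed exon, and other cells of the tibia also express *Atrx*, so this value does not check the labels. All 10 osteoblast markers were detected, with summed levels of 115690 to 119390 CPM in Atrx-cKO and 109640 to 186210 CPM in control libraries. Their median log2 fold change was -0.20, with 9 of 10 below 0, against a median of 0.0050 over all genes tested. In edgeR's quasi-likelihood test 3 genes of 20636 were called, at an adjusted p under 0.05 and a fold change of 1 or more on the log2 scale, which is 0.0145% of the genes tested. These were *Cartpt*, *Tcfl5* and *Lyrm4*, none of them a member and named after their values were seen.

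No cell cycle gene passed the test between Atrx-cKO and control tibias. In edgeR 0 of 41 were called and 0 reached an unadjusted p under 0.05, which 3.64% of all genes reached in either direction. DESeq2 likewise called 0 members, where it called 0.0961% of the genes it tested (0.155% at an adjusted p under 0.05 alone). It had 0 members at an unadjusted p under 0.05, where 1.11% of all genes were higher in Atrx-cKO. The lowest adjusted p of a member was 0.992. No member had groups that did not overlap, against 8.31% of all genes, and in 18 of the 41 all 3 Atrx-cKO libraries lay inside the range of the controls (43.9%, against 23.9% of all genes). As RNA of the whole bone was measured, the number of cycling cells and the RNA per cycling cell cannot be told apart.

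The fold changes were small and mostly above 0. The median log2 fold change was 0.083 over the replication genes and 0.13 over the mitosis genes, against 0.0050 over all genes tested. Of the 41 members 38 lay above 0, whereas 51.2% of all genes did. For 40 of 41 members the 95% interval of the log2 fold change lay within 1 in either direction, and these intervals reached from -0.48 to 0.74. A doubling or halving of any of these 40 genes in the whole tibia therefore lies outside its interval. The members varied together across libraries, so the 38 are not 38 separate observations.

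**Figure D1:**
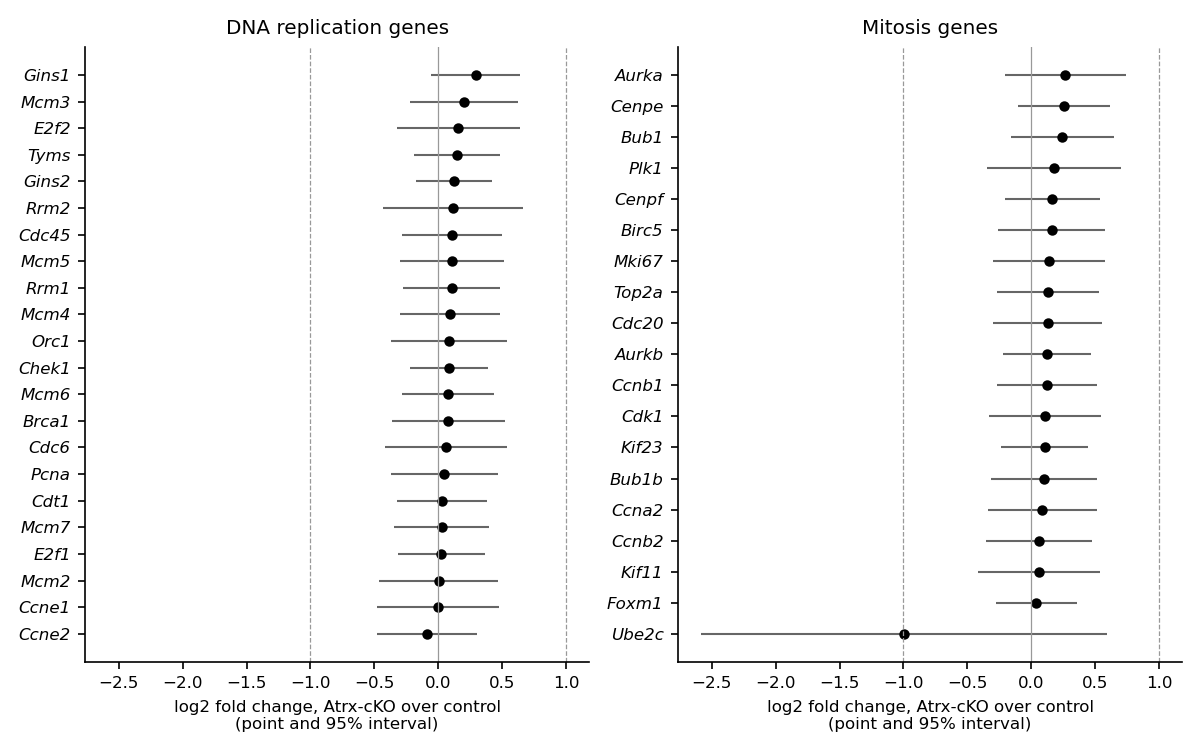
Log2 fold change of Atrx-cKO over control for the 22 replication genes (left) and 19 mitosis genes (right), with the 95% interval of edgeR's fit and dashed lines at a log2 fold change of 1 in either direction. Every interval crosses 0, and *Ube2c*, with an interval from -2.58 to 0.59, is the single member whose interval passes a dashed line.

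Among the replication genes the cyclins and E2F factors that open S phase come first. *Ccne1* and *Ccne2*, which encode the 2 E-type cyclins, had log2 fold changes of -0.0056 (SE 0.21) and -0.090 (SE 0.17). Exons of *Ints8* on the opposite strand cover 17.4% of the *Ccne2* exons. *E2f1*, an activator of replication genes, averaged 20.7 CPM in Atrx-cKO and 20.3 CPM in control tibias, with a log2 fold change of 0.024 (SE 0.15). *E2f2*, the E2F factor known for its role in maturing red cells, stood at 127 CPM ± 26.0 (SD, n = 3) against 114 CPM ± 29.9 (SD, n = 3). Its log2 fold change was 0.16 (SE 0.21).

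The loading factors *Orc1*, *Cdc6* and *Cdt1* had log2 fold changes of 0.083, 0.060 and 0.028, with SEs of 0.20, 0.20 and 0.15. The helicase subunits *Mcm2* to *Mcm7* ranged from 0.0041 to 0.20, with a lowest unadjusted p of 0.296. The largest of these was *Mcm3*, at 112, 85.7 and 77.1 CPM in Atrx-cKO and 98.5, 72.6 and 67.8 CPM in control libraries. Its highest Atrx-cKO library stood above all controls, while the other two fell below the highest control, and the groups overlapped (log2 fold change 0.20, SE 0.18, adjusted p = 0.992 in edgeR). The 6 subunits, which form 1 ring, lay within 11.3 to 22.8 CPM per kilobase of exon, where the length merges all annotated exons of a gene. *Mcm2* was the lowest by this measure and had the longest merged exons of the 6 (6956 bases). In CPM *Mcm4* was the lowest, with means of 68.6 in Atrx-cKO and 64.4 in control libraries, against 78.4 and 78.2 for *Mcm2*.

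The GINS genes, whose products hold the active helicase together, included the member with the lowest p. *Gins1* (chr2:150905400-150931280, plus strand) was measured at 10.9, 8.72 and 8.25 CPM in Atrx-cKO and 8.31, 7.07 and 7.42 CPM in control libraries. The highest control lay between the lowest pair of Atrx-cKO libraries, so the groups overlapped by a narrow margin. The log2 fold change was 0.29 (SE 0.15, 95% interval -0.06 to 0.64), with an unadjusted p of 0.0905 and an adjusted p of 0.992 in edgeR. *Gins2* was almost constant in the Atrx-cKO libraries at 54.3, 55.8 and 55.2 CPM, and spread over 61.5, 44.1 and 46.3 CPM in the controls. All 3 Atrx-cKO values lay within the control range, and the log2 fold change was 0.12 (SE 0.13). Exons of *Gse1* on the opposite strand cover 67.3% of the *Gins2* exons, and where a count does not use strand the reads of such a pair cannot be told apart. *Cdc45*, which activates the helicase with GINS, had a log2 fold change of 0.11 (SE 0.17).

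*Pcna* (chr2:132249162-132253314, minus strand), the sliding clamp of the replicative polymerases, was the highest replication gene per length at 44.8 CPM per kilobase. It was measured at 123, 105 and 100.1 CPM in Atrx-cKO and 138, 88.8 and 90.5 CPM in control libraries. The first control was the highest of the 6 libraries and the other two the lowest, so all Atrx-cKO values lay between them. The log2 fold change was 0.048 (SE 0.18, 95% interval -0.37 to 0.46). The processed pseudogene *Pcna-ps2* was counted at 16.1 to 22.1 CPM, so reads of *Pcna* may be split with this copy.

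Of the genes that supply nucleotides, *Tyms*, the thymidylate synthase, was measured at 32.2, 27.5 and 23.4 CPM in Atrx-cKO and 28.7, 24.3 and 22.1 CPM in control libraries. The groups interleaved and the log2 fold change was 0.15 (SE 0.15, adjusted p = 0.992 in edgeR). *Rrm1* and *Rrm2*, the large and small subunits of ribonucleotide reductase, had log2 fold changes of 0.10 (SE 0.16) and 0.11 (SE 0.23). Per length *Rrm2* (39.7 CPM per kilobase) was above *Rrm1* (10.6 CPM per kilobase), but their merged exon lengths differed, at 2771 and 11012 bases. In CPM the means of *Rrm2* and *Rrm1* were 114 and 121 in Atrx-cKO and 106 and 113 in control libraries. *Chek1*, the checkpoint kinase of stalled forks, was the lowest replication gene per length, with 12.8, 11.2 and 10.7 CPM in Atrx-cKO and 12.0, 11.2 and 9.66 CPM in control libraries. Its groups overlapped (log2 fold change 0.083, SE 0.13), as did those of *Brca1*, which repairs broken forks (0.077, SE 0.19).

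**Figure D2:**
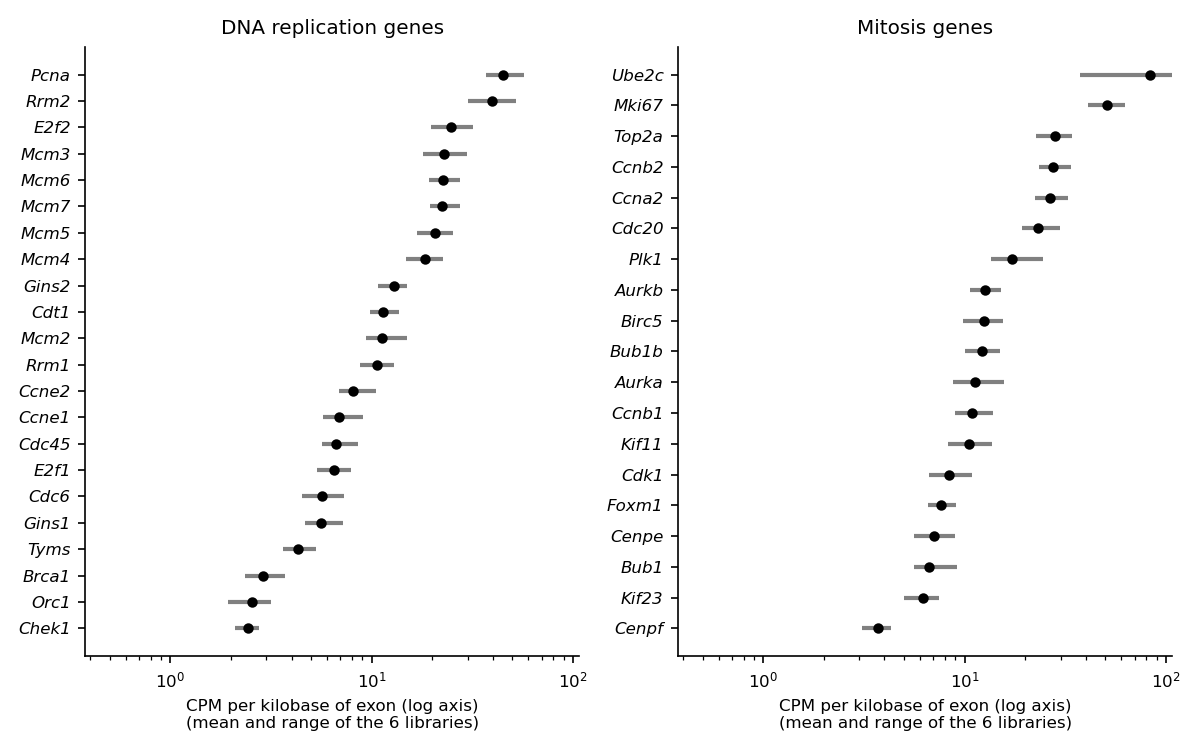
Level of each member as CPM per kilobase of exon on a log axis, with the mean (point) and the range (bar) of the 6 libraries. Replication genes run from *Chek1* (2.43) to *Pcna* (44.8) and mitosis genes from *Cenpf* (3.70) to *Ube2c* (83.4), and the bars of most neighbors overlap. The bar of *Ube2c* runs from 37.5 to 247, with its top in the third control alone, and the mean of *Mki67* (50.9) lies within it.

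Among the mitosis genes *Mki67* (chr7:135689784-135716361, minus strand), which encodes the Ki-67 protein that coats mitotic chromosomes, was measured at 615, 465 and 532 CPM in Atrx-cKO and 631, 412 and 420.2 CPM in control libraries. The Atrx-cKO values all lay between the lowest and highest control, and the log2 fold change was 0.14 (SE 0.19, 95% interval -0.30 to 0.58). *Top2a*, the topoisomerase that untangles sister chromatids, averaged 265 CPM ± 40.0 (SD, n = 3) in Atrx-cKO and 242 CPM ± 52.4 (SD, n = 3) in control tibias. The difference of the means was smaller than either SD, with a log2 fold change of 0.13 (SE 0.17).

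The genes that drive mitotic entry also had small differences. *Cdk1*, its partners *Ccna2*, *Ccnb1* and *Ccnb2* and the factor *Foxm1* had log2 fold changes between 0.041 (*Foxm1*, SE 0.14) and 0.12 (*Ccnb1*, SE 0.17). The kinases *Plk1* and *Aurkb* stood at 0.18 (SE 0.23) and 0.13 (SE 0.15). *Aurka*, the kinase of the spindle poles, was measured at 39.6, 25.9 and 28.1 CPM in Atrx-cKO and 32.6, 22.2 and 23.0 CPM in control libraries. The groups overlapped, with a log2 fold change of 0.27 (SE 0.20, adjusted p = 0.992 in edgeR), the highest of the mitosis genes.

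The spindle checkpoint and kinetochore genes did not separate the groups either. *Bub1*, a checkpoint kinase, was measured at 39.8, 27.2 and 27.8 CPM in Atrx-cKO and 31.1, 24.5 and 24.4 CPM in control libraries. *Cenpe*, a motor of the kinetochore and the mitosis gene with the lowest p, was measured at 76.9, 55.9 and 65.1 CPM against 66.1, 51.1 and 48.4 CPM. In both genes the first control exceeded 2 of the 3 Atrx-cKO libraries. The log2 fold changes were 0.24 (SE 0.17) for *Bub1* and 0.26 (SE 0.15, 95% interval -0.10 to 0.61, adjusted p = 0.992 in edgeR) for *Cenpe*.

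*Cenpf*, a large kinetochore protein and the lowest mitosis gene per length, was measured at 65.8, 50.1 and 65.0 CPM in Atrx-cKO and 66.2, 47.8 and 47.5 CPM in control libraries, with all Atrx-cKO values inside the control range (log2 fold change 0.16, SE 0.16). *Bub1b*, *Birc5*, *Kif11*, *Kif23* and *Cdc20*, which serve the checkpoint, the chromosomal passenger complex, the spindle, cytokinesis and the anaphase-promoting complex, had log2 fold changes from 0.061 (*Kif11*, SE 0.21) to 0.16 (*Birc5*, SE 0.18).

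*Ube2c* (chr2:164769898-164778822, plus strand), the ubiquitin-conjugating enzyme of the anaphase-promoting complex, stood apart. It was measured at 207, 130.3 and 97.4 CPM in Atrx-cKO and 123, 102 and 641 CPM in control libraries. The third control was 5.69 times the mean of the other two, while in *Cdc20*, which acts on the same complex, that ratio was 0.83. The log2 fold change of *Ube2c* was -0.99 (SE 0.68, 95% interval -2.58 to 0.59, adjusted p = 0.992 in edgeR). Without the third control it was 0.35 (SE 0.29).

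*Tnnc2* (chr2:164777161-164779967, minus strand), the troponin C of fast muscle, shares 592 exonic bases with *Ube2c*, which is 22.8% of the *Ube2c* exons. *Tnnc2* was measured at 141, 78.5 and 43.1 CPM in Atrx-cKO and 59.2, 58.9 and 619 CPM in control libraries. As for *Ube2c*, the Atrx-cKO libraries fell from the first to the third, and the third control was the highest. The first and second controls were almost equal for *Tnnc2*, so their order carries no weight. The 12 skeletal muscle markers, all detected, summed to 804 to 2805 CPM in Atrx-cKO and 924 to 13891 CPM in control libraries, with the third control the highest. The counts hold a separate entry for ambiguous reads, at 0.64% to 0.70% of each table. The strand setting of the counting is not given in the sources used here, nor is how reads on the bases shared by *Ube2c* and *Tnnc2* were assigned. The values of *Ube2c* are uncertain for that reason, and the part of *Tnnc2* in them was not tested.

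**Figure D3:**
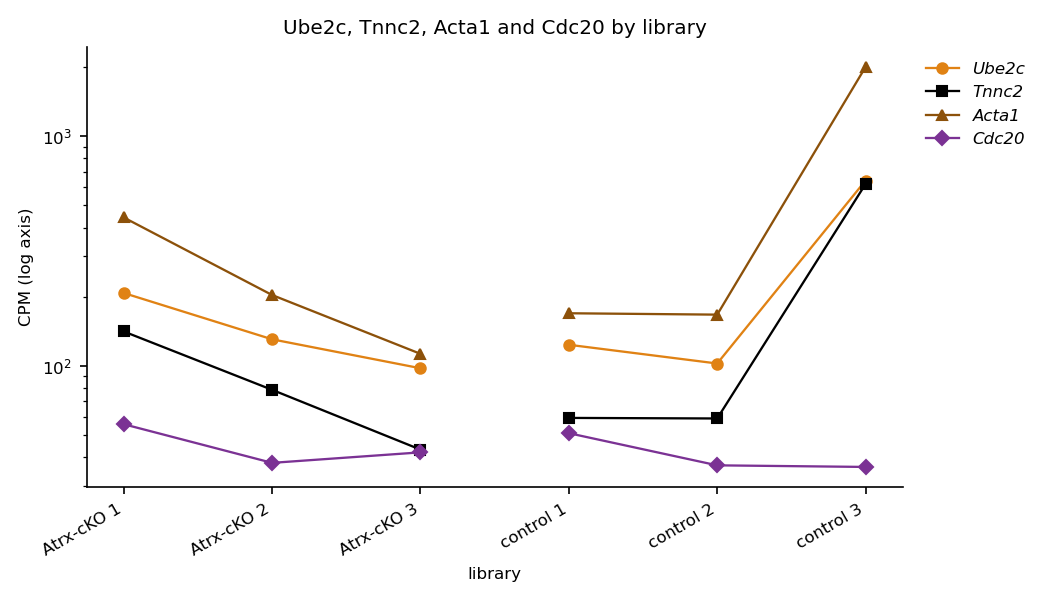
CPM of *Ube2c*, *Tnnc2*, the muscle actin *Acta1* and *Cdc20* in each library on a log axis, where lines join the libraries of 1 group and carry no order. In the third control *Ube2c* (641), *Tnnc2* (619) and *Acta1* (2003) are at their highest and *Cdc20* (36.2) is at its lowest.

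The members varied together from library to library more than between genotypes. Atrx-cKO replicate 1 was the highest of its group for 39 of 41 members and control replicate 1 for 40 of 41, against 38.8% and 34.6% of all genes. These were the 2 highest of all 6 libraries for 37 of 41 members (90.2%), as they were for 11.6% of all genes tested. The lowest library was a control for 39 of 41 members, control replicate 3 for 28 and control replicate 2 for 11, against 54.1%, 20.6% and 15.2% of all genes. The coefficient of variation of the members had a median of 15.4% in Atrx-cKO and 20.8% in control libraries, against 11.9% and 13.6% over all genes.

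**Figure D4:**
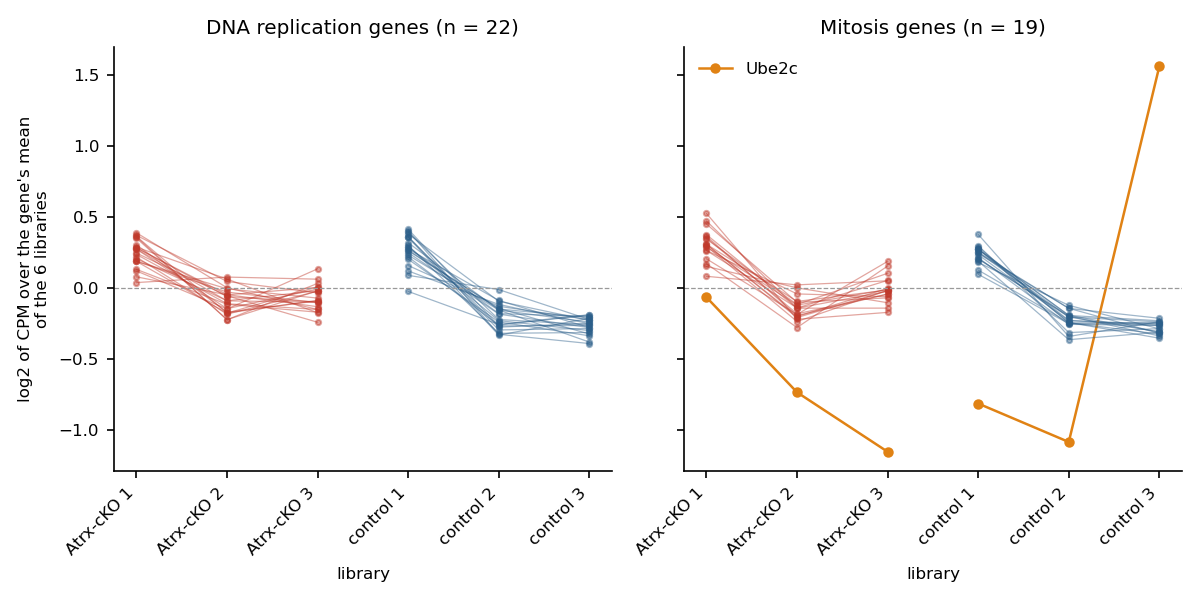
Log2 of the CPM of each member over its mean of the 6 libraries, for replication genes (left) and mitosis genes (right), with Atrx-cKO in red, control in blue and *Ube2c* in orange. Lines join the libraries of 1 group and carry no order, and both first replicates lie above the rest for nearly every gene except *Ube2c*.

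Of the within-group spread of the 41 members 65.9% fell on 1 axis, and 91.0% for the 40 without *Ube2c*, against 42.1% over all genes tested, from which none was left out. The members share libraries and depth. The geometric mean of the replication genes was 50.4, 40.2 and 40.8 CPM in Atrx-cKO and 51.2, 37.1 and 35.6 CPM in control libraries. That of the mitosis genes without *Ube2c* was 73.4, 53.9 and 59.1 CPM against 70.0, 50.8 and 49.1 CPM. The 2 arms therefore moved together: their ratio stayed within 1.34 to 1.46 in Atrx-cKO and 1.37 to 1.38 in control libraries.

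The medians moved with several single libraries. Without control replicate 1 the median log2 fold change was 0.28 over the replication genes and 0.30 over the mitosis genes, and 14 of 41 members (34.1%) were higher in Atrx-cKO at an unadjusted p under 0.05 in edgeR, against 4.13% of all genes. In DESeq2 the same left-out library gave 18 of 41 members (43.9%), against 2.82% of all genes. None of them passed an adjusted p under 0.05, which 0.00937% of all genes did in edgeR and 2.96% in DESeq2, and the lowest adjusted p was 0.278 in edgeR (*Gins2*) and 0.0781 in DESeq2 (*Gins2*). Without Atrx-cKO replicate 1 the medians were -0.034 and -0.016, with 6 of 22 replication genes and 9 of 19 mitosis genes above 0. Without control replicate 2 they were 0.021 and 0.057, and without control replicate 3 they were -0.039 and 0.027.

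Markers of other tibia cells differed between the same libraries. The 13 erythroid markers, none of them at 0, summed to 5246, 4063 and 4648 CPM in Atrx-cKO and 6687, 2687 and 3311 CPM in control libraries, with control replicate 1 the highest for all 13. The mature neutrophil markers summed to 9373 to 13259 CPM in Atrx-cKO and 7777 to 11002 CPM in control libraries, and the granulocyte progenitor markers to 1590 to 2911 CPM and 1592 to 2114 CPM, both highest in Atrx-cKO replicate 1. The early B cell markers summed to 276 to 405 CPM and 215 to 390.3 CPM and were lowest within their group in Atrx-cKO replicate 1. The osteoblast markers were lowest within the controls in control replicate 1, the reverse of the cell cycle genes.

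With the erythroid level as a covariate, an alternative chosen after seeing the data, the medians were 0.033 over the replication genes and 0.071 over the mitosis genes. In this fit 0 of 41 members reached an unadjusted p under 0.05, as in the fit without the covariate. Of all genes 1.98% were higher in Atrx-cKO at that threshold with the covariate. The part of the other cell types was not tested. Chondrocyte markers summed to 3708 to 4152 CPM in Atrx-cKO and 4004 to 7386 CPM in control libraries, and adipocyte markers to 171.5 to 269 CPM over all 6.

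**Figure D5:**
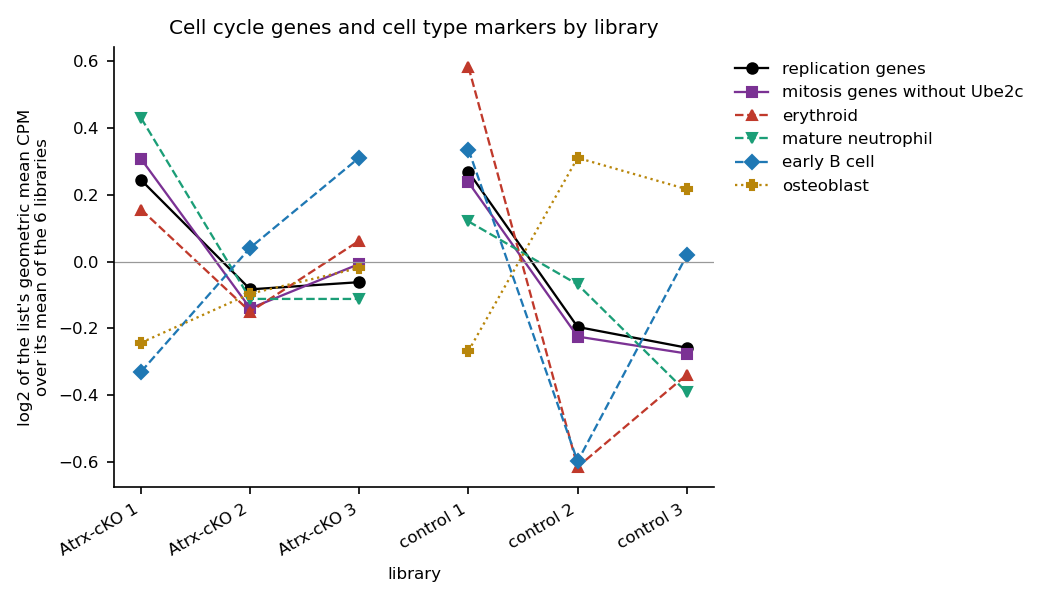
Log2 of the geometric mean CPM of each gene list over its mean of the 6 libraries, with solid lines for the 2 arms of cell cycle genes, dashed for marrow markers and dotted for osteoblast markers. The cell cycle arms are highest in the first replicate of each group, the erythroid markers are highest in the first control, and the osteoblast markers are lowest there.

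The rest of the cell cycle machinery was read from lists of its known genes. Of 41 further replication genes 1 reached an unadjusted p under 0.05 in edgeR, against 3.64% of all genes. This was *Pold2*, a subunit of polymerase delta, at 22.7, 16.3 and 15.7 CPM in Atrx-cKO and 13.4, 13.8 and 14.0 CPM in control libraries. All of its Atrx-cKO libraries were above all controls, a separation in either direction found for 8.31% of all genes, with a log2 fold change of 0.41 (SE 0.15) and an adjusted p of 0.992 in edgeR. Next by p were *Gmnn*, the inhibitor of CDT1 (0.31, SE 0.16), the fork protection gene *Timeless* (0.17, SE 0.097) and the polymerase epsilon subunit *Pole2* (0.25, SE 0.17). The median log2 fold change of the 41 was 0.096, with 35 above 0. Without control replicate 1 it was 0.19, and 9 of 41 (22.0%) were higher at an unadjusted p under 0.05 in edgeR, against 4.13% of all genes. In DESeq2 the same left-out library gave 11 of 41 (26.8%), against 2.82% of all genes. There *Gmnn* had an adjusted p under 0.05 (log2 fold change 0.50, adjusted p = 0.0176 in DESeq2), as had 2.96% of all genes. Its fold change was below the log2 value of 1 that a call needs. Without Atrx-cKO replicate 1 the median was 0.0027.

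Of 62 further mitosis genes 0 reached an unadjusted p under 0.05 in edgeR or in DESeq2, against 3.64% of all genes in edgeR. The median log2 fold change was 0.11 and 56 lay above 0. Without control replicate 1 the median was 0.28, and 21 of 62 (33.9%) were higher at an unadjusted p under 0.05 in edgeR, against 4.13% of all genes. In DESeq2 these were 23 of 62 (37.1%), against 2.82% of all genes. None of them had an adjusted p under 0.05, and without Atrx-cKO replicate 1 the median was 0.016. The lowest p belonged to the kinesin gene *Kif18a* (0.29, SE 0.13, adjusted p = 0.992 in edgeR), the checkpoint kinase gene *Ttk* (0.20, SE 0.11), the cohesin protector *Sgo1* (0.23, SE 0.14) and the centrosomal kinase gene *Nek2* (0.30, SE 0.19).

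Of 24 G1 cyclins, kinases and E2F or DREAM regulators 1 reached an unadjusted p under 0.05 in edgeR, a share near the 3.64% of all genes. This was *Ccnd1*, cyclin D1, at 60.7, 44.2 and 46.9 CPM in Atrx-cKO and 42.5, 40.3 and 41.6 CPM in control libraries, with no overlap between groups, as for 8.31% of all genes (log2 fold change 0.29, SE 0.12, adjusted p = 0.992 in edgeR). The pocket protein gene *Rbl1*, cyclin D2 (*Ccnd2*) and the DREAM subunit gene *Lin9* followed at 0.24 (SE 0.12), 0.18 (SE 0.12) and 0.18 (SE 0.14). Without control replicate 1 *Rbl1* had an adjusted p under 0.05 in DESeq2 (log2 fold change 0.38, adjusted p = 0.0416 in DESeq2), as had 2.96% of all genes. Its fold change was below the log2 value of 1 that a call needs. The 7 CDK inhibitors, which brake the cycle, had a median of 0.023, and 0 of 7 reached an unadjusted p under 0.05 in edgeR or in DESeq2. Of all genes 3.64% reached it in edgeR, so 0 of 7 is near that share. Their lowest p belonged to *Cdkn2b* (-0.57, SE 0.42), *Cdkn2d* (0.24, SE 0.19), *Cdkn2a* (-0.23, SE 0.22) and *Cdkn1b* (0.057, SE 0.086).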

How the data were processed

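Gene counts of tibia RNA from 3 Atrx-cKO and 3 control mice were used. The authors deposited raw counts per gene for each library, made from polyA libraries that the labels call strand specific, although the kit they name, TruSeq RNA Sample Prep v2, is not one that marks strand. The aligner, the counter and its strand setting are not given in the sources used here, and the submitters' processing notes name DESeq2 and GRCm38. Entries that name no gene (reads on no feature were 51.6% to 52.4% of each table) were left out. Genes were named by GENCODE M21 on GRCm38, which named 55141 of 55401 identifiers. CPM are counts scaled by the library size and the TMM factor. The exon length of a gene merges all of its annotated exons, so it can exceed the length of any 1 transcript. Counts were fitted in edgeR 4.0.16 (R 4.3.3) with TMM, filterByExpr at its defaults, glmQLFit and glmQLFTest on genotype, and Benjamini-Hochberg adjustment over all genes tested. A call needed an adjusted p under 0.05 together with a fold change of 1 or more on the log2 scale. DESeq2 1.42.0 was the alternative test, and both scripts were run on simulated counts with known log2 fold changes of 1 or more in size. That run gave all genes the same dispersion, so it does not measure the power for smaller changes such as those of most members. For geometric means 0.5 CPM was added. Alternatives covered normalization, filter, test, replicate block, left-out libraries, an erythroid covariate and *Ube2c*. Chi-square per degree of freedom between replicates was 17.1 to 151.6, so no library was a copy of another. The labels do not say how replicates were obtained beyond separate samples, so p-values measure the spread between these samples. The members and gene lists were chosen with earlier results of these data known. Every member could be named. Values by library were given for *Mki67*, *Pcna*, the 4 members of each arm with the lowest p and the highest and lowest member of each arm per length, and up to 4 genes with the lowest p were named from each other list.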

Additional observations from a re-analysis of the deposited data

How the results depend on the processing

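The call of 0 members held in all 20 alternatives. With no filter 1 member, *Ube2c*, was lower in Atrx-cKO at an unadjusted p under 0.05 in edgeR (log2 fold change -0.98). In that fit 0 members were higher at this threshold, against 1.42% of all genes. The count of genes called over all genes tested moved from 3 to 1 with at least 10 counts in every sample, 5 with no filter, 23 in DESeq2, 1 with the erythroid covariate, 0 to 5 with 1 library left out in edgeR and 13 to 70 with 1 left out in DESeq2. The same replicate number did not mark a shared litter or batch in the labels, and deviations of same-numbered libraries correlated at -0.025, 0.062 and -0.071 over all genes, so the numbers were not taken to pair the mice. With the replicate number as a block the genes called numbered 0, the medians were 0.10 and 0.13, 4 of 41 members (9.76%) were higher in Atrx-cKO at an unadjusted p under 0.05, against 2.02% of all genes, and *Ccne1* turned to 0.012. Over left-out libraries in edgeR and DESeq2 the median ranged from -0.039 to 0.28 (replication) and -0.016 to 0.31 (mitosis). Log2 fold changes that changed sign there ranged over *Brca1* -0.045 to 0.33, *Bub1b* -0.048 to 0.30, *Ccna2* -0.067 to 0.29, *Ccnb1* -0.048 to 0.26, *Ccnb2* -0.092 to 0.24, *Ccne1* -0.15 to 0.24, *Ccne2* -0.22 to 0.11, *Cdc20* -0.052 to 0.31, *Cdc45* -0.076 to 0.23, *Cdc6* -0.10 to 0.30, *Cdk1* -0.089 to 0.28, *Cdt1* -0.074 to 0.19, *Chek1* -0.011 to 0.15, *E2f1* -0.11 to 0.19, *E2f2* -0.010 to 0.39, *Foxm1* -0.060 to 0.20, *Kif11* -0.078 to 0.32, *Kif23* -0.020 to 0.30, *Mcm2* -0.13 to 0.27, *Mcm4* -0.042 to 0.28, *Mcm5* -0.026 to 0.32, *Mcm6* -0.056 to 0.24, *Mcm7* -0.089 to 0.21, *Orc1* -0.072 to 0.30, *Pcna* -0.067 to 0.29, *Plk1* -0.11 to 0.35, *Rrm1* -0.023 to 0.28, *Rrm2* -0.060 to 0.42, *Ube2c* -1.39 to 0.35; the cause was not tested. With the erythroid covariate, chosen after seeing the data, signs also turned in *Ccnb2* -0.0023, *Cdc6* -0.0081, *Cdt1* -0.026, *E2f1* -0.018, *Foxm1* -0.0013, *Kif11* -0.010, *Mcm2* -0.057, *Mcm7* -0.031, *Pcna* -0.0055. With library size alone *Ccne1* was 0.048, and in DESeq2 *Mcm2* was -0.00038. Without *Ube2c*, also chosen after seeing the data, the mitosis median was 0.13. At 50977777 counts or more per library, depth did not keep any member from being tested, and 3 mice per group limit the differences that can be seen.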
